A study of Homo sapiens with 27 samples.

Results

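Desmosomes are plaques that join neighbouring epithelial cells and anchor their keratin filaments. This account covers 8 genes that encode their parts or the plakin proteins bound to them: the desmosomal cadherins DSG2 and DSC2, the armadillo proteins JUP, PKP2 and PKP3, and the plakins DSP, PPL and EVPL. They were taken by gene symbol from a table of 26485 genes, and all 8 were among the 14789 genes abundant enough to be tested. In a desmosome the cadherins bind across the gap between cells, plakoglobin (JUP) and the plakophilins hold their tails inside the cell, and desmoplakin (DSP) ties the plaque to keratins. Periplakin (PPL) and envoplakin (EVPL) pair with each other at desmosomes and filaments and are best known as scaffold proteins of the cornified envelope of skin.

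The cells were T47D, an established luminal breast cancer line, carrying a pHAGE lentiviral vector. The control cells held the empty vector, and the other 3 lines expressed a truncated GATA3 as a Ty1-tagged fusion: the Splice del, C321fs or A333fs mutant. All lines keep their own wild-type GATA3 and were selected with puromycin as pools of cells. Each mutant is represented by 1 pool, so any other difference of that pool enters its comparisons, and each line gave 3 RNA-seq libraries. The sample labels and the methods of the study name different growth media, and the labels add collagen-treated plates. The study calls the replicates biological, and neither it nor the labels says how they were grown apart. The p-values therefore measure only the spread between these libraries, which may be partly technical. In bulk RNA a lower level can mean fewer expressing cells or less RNA per cell, which cannot be told apart.

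The libraries held 27872208 to 36788024 counted fragments. GATA3 itself stood at 1247 to 1340 CPM (counts scaled to library depth with TMM factors) in control, 962 to 1050 in Splice del, 1130 to 1155 in C321fs and 1006 to 1028 in A333fs libraries, but the table does not separate mutant from wild-type transcripts, so this checks no label. Luminal markers were abundant, with 9 of 9 above 3 counts, while the summed level of the list was 18221 to 21444 CPM in control and 12056 to 15002 CPM in the mutant lines. Most of that sum is keratin RNA (KRT8, KRT18 and KRT19), and EPCAM, an epithelial adhesion molecule on the same list, went the other way, from a mean of 208 CPM in control to 278, 268 and 268 in Splice del, C321fs and A333fs. FOXA1, also on the list, was lower, from a mean of 478 CPM in control to 450, 387 and 367 in the same order. KRT5, KRT1 and the leukocyte and endothelial genes PTPRC, CD3E, PECAM1, CDH5 and VWF had at most 3 counts in every library. So had COL1A2, PDGFRA, PDGFRB and FAP of the fibroblast list, on which COL1A1 and COL3A1 were abundant enough to be tested. A trend over exon GC content ran through the libraries. Against the mean of all libraries, log2 CPM rose by 0.15 to 0.23 per 10 points of exon GC content in the 3 control libraries and changed by -0.17 to 0.059 per 10 points in the 9 mutant libraries, so the GC trend and the step from control to mutant cannot be told apart.

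The 8 genes fall into 2 groups by the base composition of their exons. DSC2 (39.8% GC), DSG2 (42.3%), PKP2 (47.04%) and DSP (47.7%) are GC-poor, and PPL (59.5%), JUP (61.5%), EVPL (65.1%) and PKP3 (67.1%) are GC-rich. The contrast is visible in 90-base coding stretches, shown here because the levels below divide along it. Each stretch was the one whose GC share lies closest to that of its gene's exons, is read 5′ to 3′ on the coding strand from hg38, and has G and C in capitals. The DSC2 stretch lies at chr18:31068022-31068111 on the minus strand and holds 36 G or C bases, and that of PKP2 at chr12:32796110-32796199, also minus, holds 42. The EVPL stretch at chr17:76007169-76007258 on the minus strand holds 59, and the PKP3 stretch at chr11:396825-396914 on the plus strand holds 60.
DSC2: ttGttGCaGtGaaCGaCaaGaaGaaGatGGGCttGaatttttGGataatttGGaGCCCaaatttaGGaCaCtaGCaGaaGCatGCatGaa
PKP2: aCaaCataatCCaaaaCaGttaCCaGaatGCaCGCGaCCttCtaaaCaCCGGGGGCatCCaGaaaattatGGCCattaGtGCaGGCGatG
EVPL: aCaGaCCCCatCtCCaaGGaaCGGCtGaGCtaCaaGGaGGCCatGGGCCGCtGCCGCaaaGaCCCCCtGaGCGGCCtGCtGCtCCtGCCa
PKP3: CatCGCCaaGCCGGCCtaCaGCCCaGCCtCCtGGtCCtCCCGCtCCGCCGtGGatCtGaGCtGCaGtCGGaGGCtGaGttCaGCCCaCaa

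All 4 GC-rich genes stood lower in the mutant lines than in control, in 9 of 9 mutant libraries each, whereas the 4 GC-poor genes went either way and by smaller amounts. The share of all genes, or of genes of like GC content, that did so in 9 of 9 libraries was not counted, and shares per line follow. With edgeR's quasi-likelihood test and Benjamini-Hochberg adjustment over all tested genes, a gene is said here to rise or fall at an adjusted p below 0.01, and to be called when its fold change also exceeds 1.5. In Splice del cells 1 of 8 members was called lower (PKP3) and 0 higher, where 4.53% of all tested genes were called lower and 6.21% higher. In C321fs cells 1 was called lower (EVPL) and 0 higher, beside 2.26% and 4.63% of all genes. In A333fs cells 3 were called lower (JUP, PKP3 and EVPL) and 0 higher, beside 6.81% and 5.46%. With upper-quartile factors or without factors 0 members were called in each of the 3 lines. The share of all tested genes called under these settings is not given here. On the adjusted p alone, 4 members fell and 2 rose in Splice del cells (22.4% and 18.7% of all genes), 5 fell and 0 rose in C321fs cells (20.7% and 16.1%), and 4 fell and 1 rose in A333fs cells (26.4% and 21%). The libraries of 6 members did not overlap those of control in each comparison, beside 62.9%, 54.1% and 65.5% of all genes (Splice del, C321fs, A333fs).

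**Figure D1:**
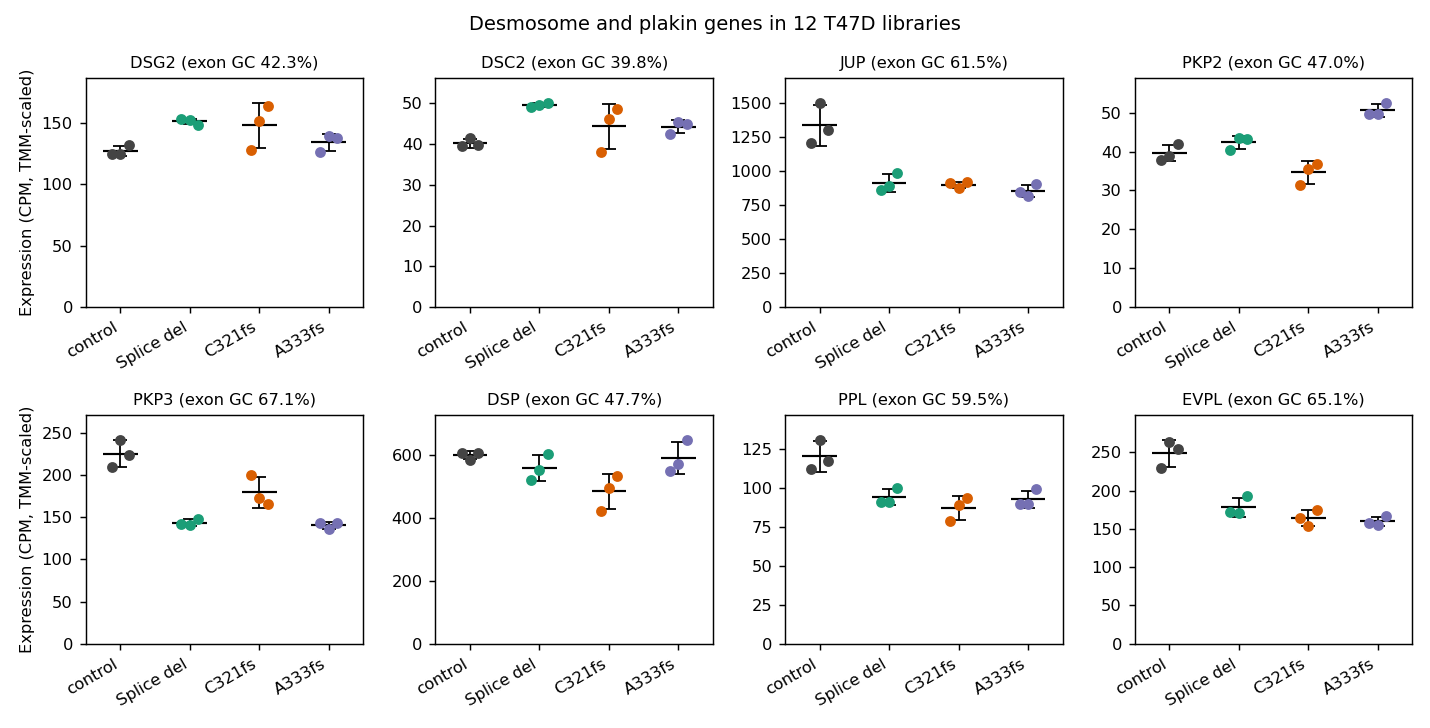
Level of each member in CPM scaled by TMM factors (y axis, from 0) in the 3 libraries of each line (x axis); points are libraries, the horizontal bar is the mean and the error bar is 1 SD. JUP, PKP3, PPL and EVPL lie lower in all 9 mutant libraries than in any control library, and PKP2 is highest in the A333fs libraries, at 49.5 to 52.5 CPM. How many of all tested genes lie lower in all 9 mutant libraries was not counted.

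Per kilobase of exon, JUP was by far the most abundant member, at 381 ± 43 CPM per kilobase in control (SD, n = 3). PKP3 followed at 76.3 ± 5.4, DSP at 61.6 ± 1.4, EVPL at 37.8 ± 2.7, DSG2 at 22.5 ± 0.72 and PPL at 19.3 ± 1.6. PKP2 at 8.90 ± 0.46 and DSC2 at 7.65 ± 0.20 were lowest. JUP stayed at the top and PKP2 and DSC2 at the bottom in every line, but DSP (57.4 ± 4.3, 49.7 ± 5.8 and 60.6 ± 5.3 CPM per kilobase in Splice del, C321fs and A333fs) stood above PKP3 in Splice del and A333fs cells, where PKP3 was at 48.6 ± 1.4 and 47.6 ± 1.4. In C321fs cells PKP3 was above DSP in the mean, at 60.8 ± 6.3. PKP2 and DSC2 lay within their spread of each other in Splice del, at 9.55 ± 0.37 and 9.44 ± 0.097, and in C321fs, at 7.80 ± 0.65 and 8.44 ± 1.07. The summed level of all 8 was 615 ± 51 CPM per kilobase in control and 454 ± 27, 448 ± 11 and 435 ± 21 in Splice del, C321fs and A333fs, and no mutant library (420 to 484) reached the lowest control library (568). JUP made up 61.8% of this sum in control and 57.2%, 57.2% and 56.1% in Splice del, C321fs and A333fs, so it carried most of the difference. DSP went from 10.1% of the sum in control to 13.9% in A333fs.

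The cadherin DSG2, desmoglein 2 (chr18:31498064-31548851 in hg38, plus strand), is the form found in simple epithelia. Its control libraries held 125, 125 and 132 CPM and the Splice del libraries 153, 152 and 149 CPM. The C321fs libraries gave 128, 152 and 164 CPM, and the A333fs libraries 126, 139 and 137 CPM. All Splice del libraries were above control, and the other lines overlapped it. DSG2 rose in Splice del cells by 0.25 ± 0.07 on the log2 scale (SE, adjusted p = 0.0088), and was 0.22 ± 0.07 higher in C321fs (adjusted p = 0.020) and 0.079 ± 0.07 higher in A333fs (adjusted p = 0.37). Its exons share 171 bases with DSG2-AS1 on the other strand, which the unstranded counting cannot resolve.

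The partner cadherin DSC2, desmocollin 2 (chr18:31065974-31102432, minus strand), had a similar pattern. Its control libraries held 39.4, 41.4 and 39.8 CPM and the Splice del libraries 49.1, 49.6 and 50.1 CPM. The C321fs libraries gave 38.0, 46.3 and 48.7 CPM, and the A333fs libraries 42.4, 45.4 and 45.03 CPM. The Splice del and A333fs libraries lay above control, and 1 C321fs library lay under it. DSC2 rose in Splice del cells (log2 fold change 0.30 ± 0.08, adjusted p = 0.0030), while the differences of 0.14 ± 0.08 in C321fs and 0.14 ± 0.08 in A333fs did not pass (adjusted p = 0.13 and 0.12). The cadherins of stratified epithelia were not measurable: DSG1, DSG3, DSG4 and DSC3 had at most 3 counts in every library.

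The armadillo protein JUP, plakoglobin (chr17:41754607-41786712, minus strand), also binds classical cadherins at adherens junctions. Control libraries held 1206, 1501 and 1303 CPM, Splice del 860, 887 and 986, C321fs 909, 874 and 917, and A333fs 843, 818 and 905. Every mutant library was below every control library, and the second control library was the highest. JUP fell in all 3 lines, by log2 fold changes of -0.55 ± 0.08 in Splice del (adjusted p = 2.0e-05), -0.57 ± 0.08 in C321fs (2.8e-05) and -0.64 ± 0.08 in A333fs (4.0e-06). The call in A333fs rests on the second control library and the second A333fs library, without which the values are -0.55 and -0.58. It was also lost with upper-quartile factors (-0.53) and without factors (-0.49). In Splice del JUP was called without control replicate 1 (-0.62) or Splice del replicate 3 (-0.61), and in C321fs without control replicate 1 (-0.64), control replicate 3 (-0.59) or C321fs replicate 3 (-0.59).

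The plakophilins differed from each other in their pattern over the lines. PKP2, plakophilin 2 (chr12:32790746-32896846, minus strand), recruits desmoplakin to the membrane. Its control libraries held 37.9, 38.8 and 41.8 CPM and the Splice del libraries 40.5, 43.4 and 43.3 CPM. The C321fs libraries gave 31.4, 35.6 and 36.8 CPM, and the A333fs libraries 49.5, 49.7 and 52.5 CPM. The A333fs libraries were the 3 highest and the C321fs libraries the 3 lowest of the 12. PKP2 rose in A333fs cells (log2 fold change 0.36 ± 0.07, adjusted p = 0.00028), and its differences in Splice del (0.10 ± 0.07, adjusted p = 0.21) and C321fs (-0.19 ± 0.07, adjusted p = 0.027) did not pass.

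PKP3, plakophilin 3 (chr11:392599-404908, plus strand), binds most desmosomal proteins in simple and stratified epithelia. Its control libraries held 210, 242 and 224 CPM and the Splice del libraries 142, 140 and 148 CPM. The C321fs libraries gave 201, 173 and 166 CPM, and the A333fs libraries 143, 136 and 143 CPM. All mutant libraries lay below control, C321fs replicate 1 being the nearest. PKP3 fell in Splice del (-0.65 ± 0.07, adjusted p = 2.4e-06), in C321fs (-0.33 ± 0.07, adjusted p = 0.0012) and in A333fs (-0.68 ± 0.07, adjusted p = 1.3e-06). PKP1, the plakophilin of stratified layers, had at most 5 counts in any library and was not tested.

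The plakin DSP, desmoplakin (chr6:7541637-7586713, plus strand), showed the smallest differences of the larger members. Control libraries held 607, 584 and 607 CPM, Splice del 519, 553 and 602, C321fs 422, 495 and 534, and A333fs 549, 572 and 648. C321fs libraries were all below control, whereas the other lines overlapped it. DSP fell in the C321fs line (-0.31 ± 0.08 on the log2 scale, adjusted p = 0.0054), and its values of -0.10 ± 0.08 in Splice del and -0.023 ± 0.08 in A333fs did not pass (adjusted p = 0.31 and 0.83).

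The paired plakins PPL (chr16:4882507-4937135, minus strand) and EVPL (chr17:76006846-76027426, minus strand) were both lower in every mutant line. The PPL control libraries held 112.6, 131 and 117 CPM and the Splice del libraries 90.9, 91.3 and 100.2 CPM. The C321fs libraries gave 79.1, 89.1 and 94.0 CPM, and the A333fs libraries 89.7, 89.9 and 99.3 CPM. The EVPL control libraries held 229, 263 and 255 CPM and the Splice del libraries 172, 171 and 193 CPM. The C321fs libraries gave 164, 154 and 175 CPM, and the A333fs libraries 158, 155 and 167 CPM. Neither gene's mutant libraries overlapped control. PPL fell by 0.36 ± 0.07, 0.46 ± 0.07 and 0.37 ± 0.07 on the log2 scale in Splice del, C321fs and A333fs (adjusted p = 0.00085, 0.00014 and 0.00049). EVPL fell by 0.48 ± 0.07, 0.60 ± 0.07 and 0.64 ± 0.07 (adjusted p = 2.6e-05, 7.7e-06 and 1.7e-06). The EVPL call in C321fs was lost without control replicate 2 (-0.56) or C321fs replicate 2 (-0.56), and the call in A333fs without A333fs replicate 2 (-0.58).

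Among the 8 genes the fold changes ran broadly down with GC content, and so did those of all genes. Of the tested genes, 4792 had exons of 39.8 to 48% GC, the range of the GC-poor members, and their median log2 fold change was 0.18, 0.17 and 0.24 (Splice del, C321fs, A333fs). The GC-poor members had medians of 0.18, -0.026 and 0.11. For the 2705 genes of 59 to 67.1% GC, the range of the GC-rich members, the medians were -0.26, -0.25 and -0.45, and the GC-rich members had -0.52, -0.52 and -0.64. Over all 8 members the medians were -0.23, -0.32 and -0.20, against 0.032, 0.021 and 0.0086 over all tested genes.

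**Figure D2:**
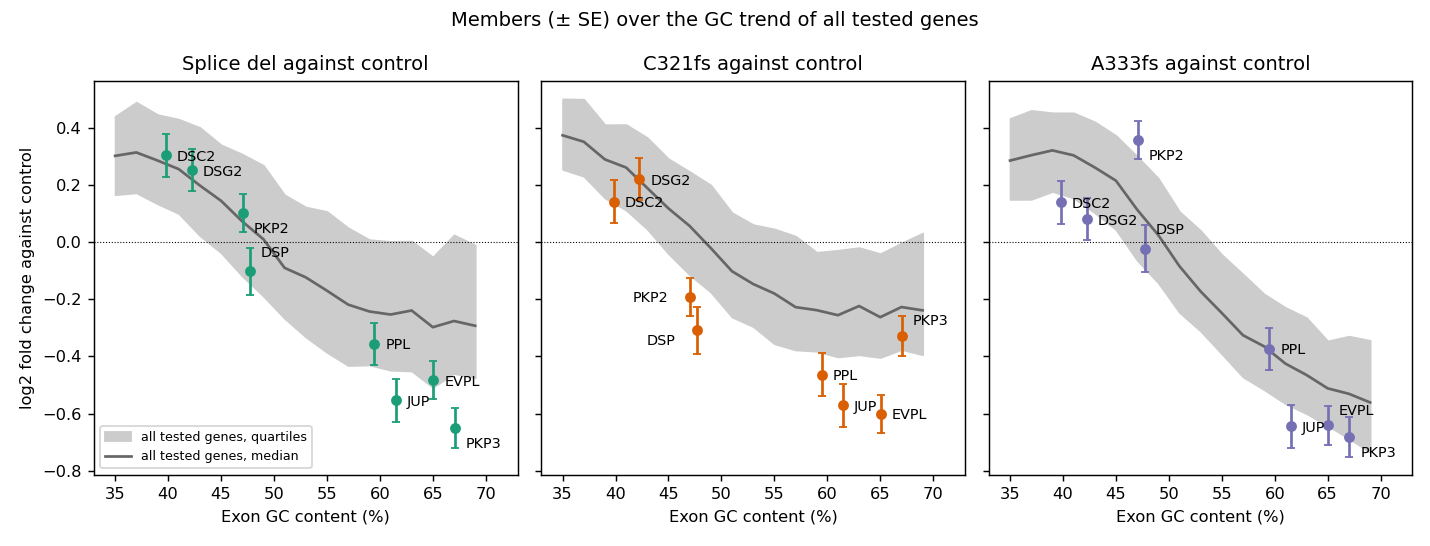
Log2 fold change against control (y axis) over exon GC content in percent (x axis) for each mutant line; coloured points are the members with their standard error, the grey line is the median of all tested genes in 2-point bins of GC content and the grey band spans their quartiles. JUP lies under the band in all 3 panels, and PKP2 in A333fs lies above it, at 0.36.

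To see what remained beside this trend, each library's trend over GC content and exon length was estimated on genes outside the members and the gene lists and entered in the fit. No member then differed from control by more than 0.43 on the log2 scale, which is under the 1.5-fold limit, and the medians over all 8 were -0.20, -0.28 and -0.20 in the same order, against -0.057, -0.046 and -0.053 over all tested genes. On the adjusted p alone, 5 members fell and 0 rose in Splice del, beside 27.9% and 11.9% of all genes. In C321fs 6 fell and 0 rose, beside 22.6% and 9.15%, and in A333fs 5 fell and 1 rose, beside 21.6% and 9.79%. The split of all genes thus shifted towards lower values as well. A change that genes of like GC content share is taken out with the trend, whatever its source, which was not tested.

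**Figure D3:**
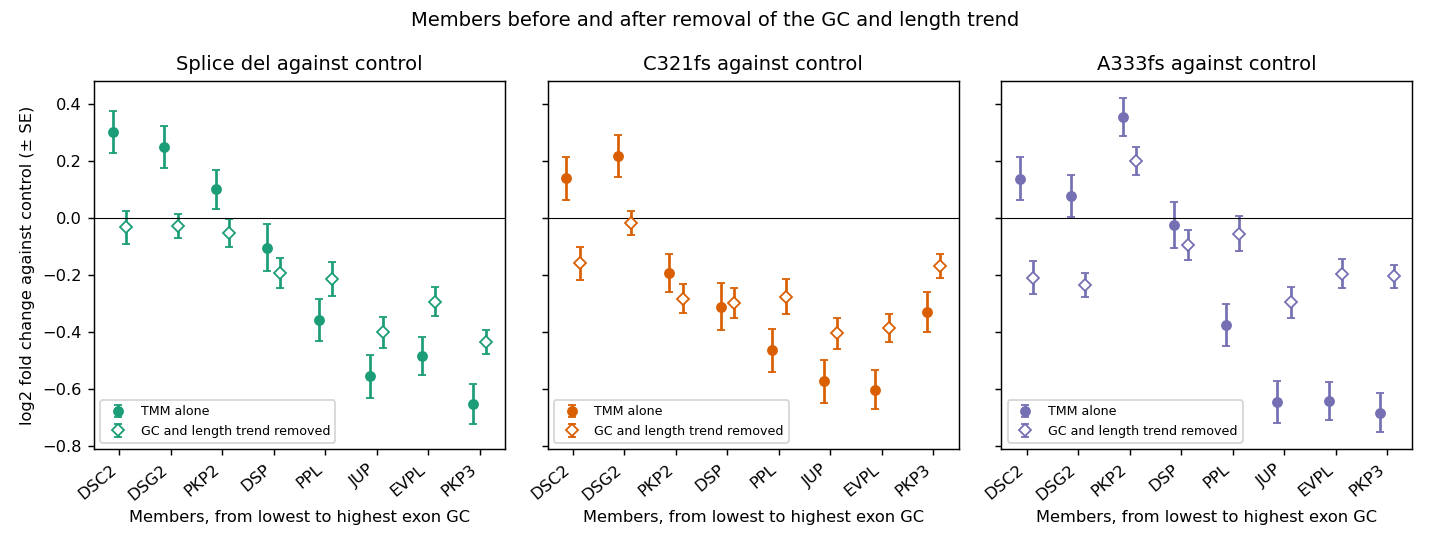
Log2 fold change of each member against control with its standard error (y axis), for TMM scaling alone (filled circles) and with the GC and length trend of each library removed (open diamonds); members run from lowest to highest exon GC content (x axis). The GC-rich members move towards 0, with JUP in A333fs going from -0.64 to -0.29, and the GC-poor cadherins move below it.

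With the trend removed JUP still fell in all 3 lines, by log2 fold changes of -0.40 ± 0.05 in Splice del (adjusted p = 5.7e-06), -0.40 ± 0.05 in C321fs (8.8e-06) and -0.29 ± 0.05 in A333fs (0.00024). Its trend-removed libraries ran from 1139 to 1247 CPM in control and from 842 to 1040 CPM in the mutants, so that they did not overlap. PKP3 fell by 0.43 ± 0.04, 0.17 ± 0.04 and 0.20 ± 0.04 on the log2 scale in Splice del, C321fs and A333fs (adjusted p = 6.8e-08, 0.0027 and 0.00057). Its libraries were at 192 to 196 CPM in control, 143 to 145 in Splice del, 171 to 175 in C321fs and 161 to 181 in A333fs, and the SD among control libraries went from 16.1 to 2.1 CPM.

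EVPL also fell in all 3 lines with the trend removed, by 0.29 ± 0.05, 0.38 ± 0.05 and 0.19 ± 0.05 on the log2 scale (adjusted p = 7.9e-05, 6.8e-06 and 0.0044). PPL fell in Splice del (-0.21 ± 0.06, adjusted p = 0.0062) and C321fs (-0.27 ± 0.06, adjusted p = 0.0012). In A333fs its difference was -0.053 ± 0.06 (adjusted p = 0.51), where the fit without removal had given -0.37. Periplakin in A333fs was thus the only difference of a GC-rich member from control that no longer passed the adjusted p.

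Of the GC-poor members, DSP fell in C321fs at nearly the same size (-0.30 ± 0.05, adjusted p = 0.00013) and now also in Splice del (-0.19 ± 0.05, adjusted p = 0.0045). PKP2 fell in C321fs (-0.28 ± 0.05, adjusted p = 0.00017) and rose in A333fs (0.20 ± 0.05, adjusted p = 0.0024). The cadherins turned direction: in Splice del, C321fs and A333fs DSG2 went from 0.25 to -0.026, from 0.22 to -0.016 and from 0.079 to -0.23, and DSC2 from 0.30 to -0.031, from 0.14 to -0.16 and from 0.14 to -0.21. Only the A333fs values passed (adjusted p = 0.00025 for DSG2 and 0.0069 for DSC2), so the rise of both cadherins in Splice del cells holds only without removal of the trend.

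The F-test of any difference among the 4 lines passed for 5 of 8 members (JUP, PKP2, PKP3, PPL and EVPL), beside 56.2% of all tested genes, and for 8 of 8 with the trend removed, beside 51.7%. The smallest adjusted p were 1.7e-06 for PKP3 and 2.3e-06 for EVPL.

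Between the mutant lines only the plakophilins passed the adjusted p with TMM scaling alone, and in opposite senses. Splice del against C321fs gave 1 member higher (PKP2) and 1 lower (PKP3) on the adjusted p, beside 4.18% and 2.14% of all genes. A333fs against C321fs gave the same 2 genes, beside 6.8% higher and 8.89% lower, and A333fs against Splice del gave 0 in each direction, beside 4.63% and 7.29%. PKP2 in A333fs exceeded C321fs by 0.55 ± 0.07 on the log2 scale (adjusted p = 1.7e-05), the largest difference of a member between mutant lines, and Splice del exceeded C321fs by 0.29 ± 0.07 (adjusted p = 0.0084). With the trend removed these were 0.48 ± 0.05 (adjusted p = 3.6e-07) and 0.23 ± 0.05 (0.0022). A333fs was also above Splice del for PKP2, by 0.26 ± 0.07 (adjusted p = 0.011) and by 0.25 ± 0.05 with the trend removed (0.00072).

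PKP3 was lower than in C321fs by 0.32 ± 0.07 in Splice del (adjusted p = 0.0055) and by 0.35 ± 0.07 in A333fs (adjusted p = 0.0014). With the trend removed the Splice del difference was -0.27 ± 0.04 (adjusted p = 0.00010), the A333fs difference was -0.035 ± 0.04 (adjusted p = 0.55), and A333fs stood 0.23 ± 0.04 above Splice del (adjusted p = 0.00042) where it had been 0.030 below. DSP in A333fs was 0.29 ± 0.08 above C321fs (adjusted p = 0.016), and 0.20 ± 0.05 with the trend removed (0.0052). In the trend-removed fit, Splice del against C321fs again gave 1 member higher and 1 lower, beside 6.06% and 6.38% of all genes. A333fs against C321fs then gave 4 higher and 1 lower, beside 10.9% and 9.75%. These were PKP2, DSP, PPL (0.22 ± 0.06, adjusted p = 0.0092) and EVPL (0.19 ± 0.05, adjusted p = 0.0074) on the higher side and DSG2 (-0.22 ± 0.04, adjusted p = 0.00073) on the lower. A333fs against Splice del gave 2 higher, PKP2 and PKP3, and 1 lower, DSG2 (-0.21 ± 0.04, adjusted p = 0.0015), beside 10.3% and 6.41%.

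Ratios of members with like GC content within 1 library need no scaling between libraries. These pairs were chosen after the values were seen, and are given without a test. Per kilobase, DSP stood at 7.31, 6.85 and 6.62 times the level of PKP2 in the control libraries and at 5.85, 5.81 and 6.34 times in Splice del. In C321fs the ratios were 6.14, 6.34 and 6.61, and A333fs libraries had 5.05, 5.25 and 5.63. The genes differ by 0.69 points of GC content, and all 9 mutant ratios lay under the control ratios, those of A333fs lowest. Their exon lengths differ more, at 9730 and 4439 bases, and these ratios leave the length trend in. With the GC and length trend removed, DSP and PKP2 fell alike in C321fs, by -0.30 and -0.28 on the log2 scale. They were at -0.19 and -0.050 in Splice del and at -0.093 and 0.20 in A333fs. The ratio of PKP3 to EVPL was 1.96 to 2.05 in control, 1.72 to 1.85 in Splice del, 2.11 to 2.73 in C321fs and 1.92 to 2.01 in A333fs, so that it was lower in Splice del and higher in C321fs without overlap. JUP stood at 19.0 to 20.3 times the level of PPL in control, 16.8 to 17.5 times in Splice del and 16.2 to 16.7 times in A333fs, while C321fs libraries spread from 17.3 to 20.4. The cadherins kept closest to each other, DSG2 being at 2.80 to 3.08 times the level of DSC2 in control and 2.75 to 3.13 times in the mutant libraries. Between the plakophilins, whose GC contents lie 20.01 points apart, the ratio of PKP3 to PKP2 was 8.59 ± 0.70 in control and 5.09 ± 0.21, 7.89 ± 1.52 and 4.18 ± 0.13 in Splice del, C321fs and A333fs (SD, n = 3).

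**Figure D4:**
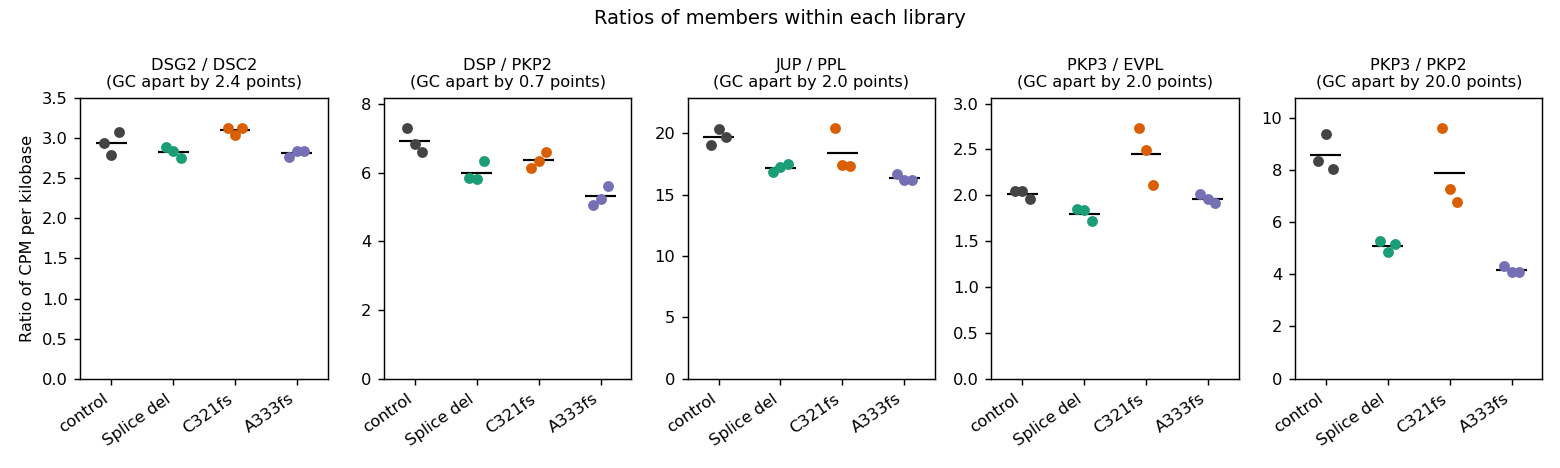
Ratio of the levels per kilobase of 2 members within each library (y axis, from 0) in the 4 lines (x axis); points are libraries, bars are means, and each title gives how far the GC contents of the pair lie apart. DSP to PKP2 is lowest in A333fs, at 5.05 to 5.63, PKP3 to EVPL is highest in C321fs, and DSG2 to DSC2 stays between 2.75 and 3.13 in every library.

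The genes whose log2 CPM ran most like PKP3 over the 12 libraries were POLD2 (Pearson r = 0.994), GRK6 (0.993) and WDR34 (0.992), and those most like EVPL were PRRC2A (0.993), EPHB3 (0.989) and ATXN2L (0.989). All 6 have exons of 59.2 to 64.4% GC, and the libraries share the GC trend, so these are given as descriptions.

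Neighbouring gene groups were read by lists. Of the keratins that desmosomes anchor, 4, 2 and 3 of 6 tested were called lower in Splice del, C321fs and A333fs and 0 higher, with medians of -0.65, -0.56 and -0.55. KRT8, the main type II keratin of simple epithelia, went from 7518 CPM in control to 3697 in Splice del (log2 fold change -1.02 ± 0.08, adjusted p = 1.0e-07) and 4210 in C321fs (-0.84 ± 0.08, adjusted p = 1.9e-06), and its partner KRT18 from 2615 to 1479 and 1662 (-0.82 ± 0.07, adjusted p = 2.0e-07, and -0.65 ± 0.07, adjusted p = 4.0e-06). KRT80 was called in Splice del (-0.66 ± 0.06) and A333fs (-0.65 ± 0.06). With the trend removed 2, 1 and 0 keratins were called lower, KRT8 (-0.87 and -0.70) and KRT18 (-0.62) among them, and the medians were -0.47, -0.40 and -0.22. The share of all genes called with the trend removed is not given here, for these counts or those of the lists below.

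Among 5 other plakin genes, 1 was called lower in C321fs: PLEC, plectin, a linker of keratins to hemidesmosomes with 67.2% GC (-0.67 ± 0.08, adjusted p = 9.4e-06). It was at -0.34 ± 0.08 in Splice del and -0.54 ± 0.08 in A333fs, and with the trend removed at -0.38, -0.089 and 0.0022 in C321fs, Splice del and A333fs. The GC-poor linkers DST and MACF1 did not pass in any line (log2 fold changes of -0.31 to -0.0096), but with the trend removed DST fell in A333fs (-0.53 ± 0.12, adjusted p = 0.0018) and MACF1 in C321fs (-0.29 ± 0.07, adjusted p = 0.0015). EVPLL, an envoplakin-like gene with mean levels of 3.57 to 5.47 CPM, was called lower in A333fs than in C321fs (-0.62 ± 0.13) and Splice del (-0.60 ± 0.13). After removal of the trend these were -0.44 ± 0.11 and -0.44 ± 0.11, and neither was called. Of the other desmosome genes 2 of 7 were tested and 0 were called against control. PERP, a membrane protein of desmosomes, rose slightly in Splice del (0.16 ± 0.05, adjusted p = 0.0075) but was at -0.14 ± 0.05 with the trend removed.

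Of 11 adherens junction genes 1 was called against control, NECTIN1 (listed as PVRL1), lower in A333fs (-0.79 ± 0.06, adjusted p = 6.7e-08) and at -0.48 ± 0.04 with the trend removed, where 0 were called. NECTIN1 also fell in Splice del (-0.49 ± 0.06, adjusted p = 6.9e-06) and C321fs (-0.30 ± 0.06, adjusted p = 0.00070). NECTIN2 (listed as PVRL2) fell in C321fs (-0.29 ± 0.06, adjusted p = 0.0011) and A333fs (-0.45 ± 0.06, adjusted p = 1.6e-05). In Splice del NECTIN2 was at -0.17 ± 0.06 and did not pass (adjusted p = 0.027). AFDN, afadin (listed as MLLT4), rose in Splice del (0.42 ± 0.11, adjusted p = 0.0049) and C321fs (0.55 ± 0.11, adjusted p = 0.00085), with 0.30 and 0.53 after removal. CDH3, P-cadherin, rose in Splice del (0.30 ± 0.07, adjusted p = 0.0021) and A333fs (0.26 ± 0.07, adjusted p = 0.0053), and with the trend removed in all 3 lines, by 0.41, 0.27 and 0.48 in Splice del, C321fs and A333fs. CDH1, E-cadherin, was at 0.21 ± 0.07, -0.074 ± 0.07 and 0.27 ± 0.07 in Splice del, C321fs and A333fs, rising in the last (adjusted p = 0.0048) but not with the trend removed (0.17 ± 0.06, adjusted p = 0.026). Of 6 tested hemidesmosome genes 1 was called lower in each line, the integrin subunit ITGB4 (-0.63 ± 0.08, -0.62 ± 0.08 and -0.69 ± 0.08), with -0.44, -0.41 and -0.27 after removal. Of 11 cornified envelope genes only 2 were tested, and IVL, involucrin, was called lower in Splice del (-0.65 ± 0.09, adjusted p = 4.0e-05) and C321fs (-1.04 ± 0.10, adjusted p = 1.9e-06). After removal of the trend it was called in C321fs (-0.91 ± 0.10) but not in Splice del, where it was at -0.50 ± 0.09.

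Marker lists of cell types moved beside these genes. Of 9 luminal markers 3, 2 and 1 were called lower in Splice del, C321fs and A333fs, and these were keratins already named or KRT19. EPCAM rose in all 3 lines, by 0.42 ± 0.05, 0.37 ± 0.05 and 0.37 ± 0.05 (adjusted p = 1.4e-05, 7.1e-05 and 3.3e-05), and by 0.30, 0.25 and 0.20 with the trend removed. ESR1, the oestrogen receptor, rose in Splice del (0.23 ± 0.06, adjusted p = 0.0047), but its 0.089 with the trend removed did not pass. FOXA1 on this list fell in C321fs (-0.30 ± 0.05, adjusted p = 7.9e-05) and A333fs (-0.38 ± 0.05, adjusted p = 5.1e-06). GATA3 fell in Splice del (-0.36 ± 0.05, adjusted p = 3.3e-05) and A333fs (-0.33 ± 0.05, adjusted p = 4.5e-05). PGR was at -0.24 ± 0.08 in C321fs, which did not pass (adjusted p = 0.022). With the trend removed, FOXA1 (-0.17), GATA3 (-0.30) and PGR (-0.26) fell in Splice del (adjusted p = 0.00061, 4.9e-06 and 1.4e-05). Lower values were not confined to that line: the medians of the luminal list were then -0.26, -0.36 and -0.20 in Splice del, C321fs and A333fs. Of 4 tested stratified markers 3, 3 and 0 were called lower, KRT4, KRT13 and IVL. Among 4 tested basal and myoepithelial markers 0, 1 and 2 were called higher, TP63 in C321fs and KRT14 and ACTA2 in A333fs. The summed level of that list was 13.1 to 15.0 CPM in control, 12.6 to 14.7 in Splice del, 14.9 to 19.1 in C321fs and 20.8 to 23.0 in A333fs. ACTA2 made up most of it, with means of 13.2, 12.7, 15.9 and 20.2 CPM in the same order. KRT14 (0.011 CPM in control, 0.57 in A333fs) and TP63 (0.30 in control, 0.77 in C321fs) had at most 21 and 24 counts in any library. Of 2 tested fibroblast markers 1, 1 and 2 were called lower, COL3A1 in every line and COL1A1 in A333fs. Of 2 tested leukocyte and endothelial genes 0 were called. After removal of the trend the luminal counts were 2, 1 and 0 lower, the stratified 2, 3 and 0 lower, the basal 0, 0 and 2 higher and the fibroblast 1, 1 and 1 lower. No share of all genes called with the trend removed stands beside these counts. The basal call lost in C321fs was TP63 (1.34 ± 0.38, adjusted p = 0.0083, and 1.11 ± 0.39, adjusted p = 0.026, after removal). The part of these lists in the members' differences was not tested.

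For the promoters, the RefSeq table for GRCh38.p14 matched 4 of 8 members: DSP, DSG2, DSC2 and JUP. The entries for PKP2, PKP3, PPL and EVPL were missing. Windows of 300 bases, ending 50 bases after the start site, were searched on both strands for GATA sites, which read AGATAA, or end in G as AGATAG, or begin with T as in TGATAA and also TGATAG, and for the shorter AGAT. Further motifs were the E-box with the letters CACCTG, the grainyhead site with AACCGGTT, the AP-1 site with TGANTCA and the GC box with GGGCGG. JUP is shown because it carries most of the summed level and is the only one of the 4 with a GATA site (AGATAG). The 250 bases upstream of it (chr17:41786712-41786961, minus strand, read 5′ to 3′) have the GATA site and the GC boxes in capitals.
JUP: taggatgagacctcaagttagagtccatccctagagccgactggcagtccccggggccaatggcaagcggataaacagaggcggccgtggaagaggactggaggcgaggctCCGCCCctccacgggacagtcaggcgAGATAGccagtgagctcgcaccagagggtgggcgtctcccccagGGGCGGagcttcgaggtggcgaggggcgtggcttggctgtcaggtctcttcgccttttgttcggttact
A GATA site occurs in 25% of all 35116 windows of the table and AGAT, which the GATA forms AGATAA and AGATAG contain, in 69.9%. DSC2 held 2 AGAT matches, JUP held 1, which lies in its GATA site, and DSP and DSG2 held 0. DSP and DSG2 each held 2 E-boxes and DSC2 held 1, a motif of 20.6% of windows, and all 4 held GC boxes (8 in DSP, 2 in DSG2, 1 in DSC2 and 3 in JUP), as 45% of windows did. None of the 4 held the AP-1 site (7.71% of windows) or the grainyhead site (0.134%). These matches are letters in a window and say nothing of binding.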

How the data were processed

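RNA-seq counts of 12 T47D libraries in 4 lines were used. The authors trimmed the reads, aligned them to hg38 and gave proper pairs to featureCounts (v1.6.4 in the header of the table), and the deposited counts per gene are whole, unstranded and not normalized, and the other deposited column used was the exon length. The processing notes name HISAT2 and the header a STAR folder as aligner. The ChIP-seq was not analysed here.

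Genes were filtered with filterByExpr (14789 of 26485 kept), scaled by TMM and fitted in 1 model with edgeR 4.0.16 (R 4.3.3, glmQLFit and glmQLFTest) with 1 coefficient per line. The libraries held 27872208 to 36788024 counts each, and standard errors and p-values rest on the spread between libraries within lines, estimated in this 1 model. GC content was computed over the union of counted exons in hg38, whose length equalled the length column for all 26485 genes. Loess trends (span 0.3, log2 CPM with a prior count of 2) over GC content and log2 exon length entered as offsets. The scripts were tested on simulated data. Replicate numbers did not pair the libraries: residuals of same-numbered libraries correlated at -0.0092 on average (18 pairs, -0.12 to 0.17). A chi-square per gene of 2.16 to 27.8 between libraries of a line was above sampling noise, so none was counted as a copy of another.

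The members, gene lists, tests and trend removal were chosen with earlier results of these data known. Named were all 8 members, from each list up to 3 called genes (smallest adjusted p first), PLEC, DST, MACF1, PERP and CDH1 whatever their values, markers at 3 counts or fewer, and the 3 genes most correlated with PKP3 and EVPL, the members with the smallest F-test p. KRT19, EPCAM, ESR1, FOXA1, GATA3, PGR, CDH3, AFDN, NECTIN2 and ITGA6 were named outside this rule, after their values were seen. Alternatives were RLE, upper-quartile and no scaling factors, other count filters, DESeq2 1.42.0, fits of 2 lines alone, a replicate term, other thresholds and leaving out each library.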

Additional observations from a re-analysis of the deposited data

Results flagged for a closer look

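In the same contrast with control, 2 members had effects that differed between the mutant lines when the difference itself was tested (edgeR, quasi-likelihood, Benjamini-Hochberg adjusted p over all tested genes). PKP2 was higher relative to C321fs in A333fs, by 0.55 on the log2 scale (adjusted p = 1.7e-05, higher in 3 of 3 libraries), and in Splice del, by 0.29 (adjusted p = 0.0084, 3 of 3). PKP3 was lower relative to C321fs in Splice del, at -0.32 (adjusted p = 0.0055, 3 of 3), and in A333fs, at -0.35 (adjusted p = 0.0014, 3 of 3). With the GC and length trend removed the PKP3 difference between A333fs and C321fs was -0.035. No group had the 4 libraries that a search for outlying samples needs.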

How the results depend on the processing

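Over 25 alternatives, the 33 differences of members examined one by one kept their side of the thresholds in most fits, and RLE factors, fits of 2 lines alone, an adjusted p of 0.05 and the replicate block (1, 1 and 3 members called lower in Splice del, C321fs and A333fs) changed no call among them. The count of members called lower against control went to 0 in all 3 lines with upper-quartile factors, without factors, and with the GC trend removed alone, together with length or together with the replicate block. With at least 10 counts in every library it was 0 in C321fs, and with DESeq2 it was 2 there. The share of all tested genes called under these settings, or with 1 library left out, is not given here. Without a minimum fold change 4 members were lower and 2 higher in Splice del, 5 lower in C321fs, and 4 lower and 1 higher in A333fs. Against C321fs, 1 was higher and 1 lower in Splice del and in A333fs. The members that differed among the 4 lines were 8 without a filter, at an adjusted p of 0.05 and after removal of GC and length. Leaving out 1 library gave 1 to 2 members called lower in Splice del, 0 to 2 in C321fs (0 without control replicate 2 or C321fs replicate 2), 1 to 3 in A333fs (1 without A333fs replicate 2), and 0 to 1 higher in A333fs against C321fs (PKP2, at 0.60 without C321fs replicate 3 or A333fs replicate 2).

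Directions turned mainly with GC. With GC and length removed, GC alone removed, and GC and length removed with the replicate block, in this order, DSG2 was at -0.026, -0.0071 and -0.026 in Splice del, -0.016, -0.024 and -0.018 in C321fs and -0.23 throughout in A333fs, and DSC2 at -0.031, -0.011 and -0.032, at -0.16, -0.17 and -0.16, and at -0.21 throughout. PKP2 was at -0.050, -0.028 and -0.048 in Splice del, and PKP3 at 0.23, 0.22 and 0.23 in A333fs against Splice del (-0.045 to 0.026 with 1 library left out). DSP was at 0.082 in Splice del without factors, and in A333fs at 0.088 with upper-quartile factors, 0.12 without factors, 0.0036 without a filter, and from -0.097 to 0.035 with 1 library left out (above 0 without A333fs replicate 1 or 2). The depth is no limit for the members, the smallest of which had at least 1027 counts in each library.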
